A study of Homo sapiens with 4 samples.

Results

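The circadian clock genes described here are NR1D1, NR1D2, BHLHE40, PER1, PER2, PER3, CRY1, CRY2, CLOCK and DBP, 10 of the 59384 gene names whose RNA was counted in Daoy, a human medulloblastoma cell line. They were chosen by gene name with earlier results of the same comparison in view, in which NR1D1 had stood among the genes with the smallest p. Their counts in shFABP4 and pLKO libraries are therefore a description, and no test of these 10 genes is used as support. The 2 shFABP4 libraries came from cells infected with lentivirus carrying a short hairpin against FABP4, with the genotype given as FABP4 knockdown. The 2 pLKO libraries came from cells infected with the pLKO control virus, with the genotype given as WT, so both groups had been through lentiviral infection. FABP4 is a small fatty acid binding protein. The labels give neither the time of collection nor any synchronisation of the cells, do not say how many hairpins were used, and leave unsaid whether the replicates were grown apart. Any p-value therefore sets the difference between groups against the spread of these replicates, and that spread may be technical.

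The mammalian clock is a transcriptional feedback loop. CLOCK and its partner BMAL1 (named ARNTL in the table) bind E-box elements and switch on the PER and CRY genes, whose proteins return to the nucleus and block that activator. A further loop runs through NR1D1 and NR1D2 (REV-ERB alpha and beta), nuclear receptors that recruit a corepressor and silence ARNTL, while BHLHE40 (DEC1) competes for E-boxes and DBP drives output genes through D-box elements. Cultured cell lines can carry this loop, and PER1 and BHLHE40 in particular also respond quickly to serum, hormones and stress.

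Promoter sequence is shown for 5 of the clock genes, so that the elements of the loop can be seen beside their values. These were picked after shFABP4 2 alone had been compared with the pLKO libraries, for display only, and the choice is not used as support. The sequences are RefSeq's, on GRCh38.p14, from the 250 bases before an annotated start, written 5′ to 3′ on the gene's strand. Capitals mark matches on either strand to the E-box CACGTG, its variant CACGTT, the nuclear receptor element AGGTCA or the D-box TTANGTAA. NR1D1 is shown at chr17:40100590-40100839 (minus strand), the second of the NR1D2 starts at chr3:23945871-23946120 (plus strand), BHLHE40 at chr3:4979187-4979436 (plus strand), DBP at chr19:48637380-48637629 (minus strand) and PER1 at chr17:8152436-8152654 (minus strand), where 31 bases that lie in an exon of another PER1 transcript are left off.
NR1D1: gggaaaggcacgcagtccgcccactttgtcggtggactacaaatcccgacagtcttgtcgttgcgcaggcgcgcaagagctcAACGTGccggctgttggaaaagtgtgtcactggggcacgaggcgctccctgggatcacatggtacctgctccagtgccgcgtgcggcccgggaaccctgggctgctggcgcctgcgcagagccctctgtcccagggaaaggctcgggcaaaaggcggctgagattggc
NR1D2: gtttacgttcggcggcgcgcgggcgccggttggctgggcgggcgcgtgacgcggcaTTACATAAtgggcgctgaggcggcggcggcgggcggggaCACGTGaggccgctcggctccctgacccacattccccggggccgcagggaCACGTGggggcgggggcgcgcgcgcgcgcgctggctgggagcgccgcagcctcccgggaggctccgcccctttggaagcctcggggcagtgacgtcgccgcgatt
BHLHE40: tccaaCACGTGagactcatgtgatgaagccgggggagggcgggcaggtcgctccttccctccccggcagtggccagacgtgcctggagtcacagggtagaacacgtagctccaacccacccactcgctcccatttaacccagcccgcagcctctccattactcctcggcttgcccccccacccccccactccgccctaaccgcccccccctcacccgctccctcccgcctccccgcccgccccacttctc
DBP: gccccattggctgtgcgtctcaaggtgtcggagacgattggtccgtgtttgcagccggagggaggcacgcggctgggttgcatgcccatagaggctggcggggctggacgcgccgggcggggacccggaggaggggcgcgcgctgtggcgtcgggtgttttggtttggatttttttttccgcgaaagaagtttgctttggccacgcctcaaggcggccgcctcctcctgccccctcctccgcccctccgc
PER1: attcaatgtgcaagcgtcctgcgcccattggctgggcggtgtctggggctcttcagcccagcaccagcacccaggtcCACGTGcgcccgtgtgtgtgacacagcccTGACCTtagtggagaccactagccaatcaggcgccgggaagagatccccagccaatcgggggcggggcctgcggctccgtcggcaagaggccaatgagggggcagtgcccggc

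All 10 genes matched a RefSeq promoter window by symbol, with 14 windows among them because NR1D2, PER3, CRY2 and CLOCK each have a pair of starts. The E-box CACGTG was in a window of 3 genes, NR1D2, PER1 and BHLHE40, and in 6.34% of 35116 windows of the same length. In NR1D2 it occurred at 2 places, beginning 155 and 105 bases before the start, in PER1 at 173 and in BHLHE40 at 245. The variant CACGTT was in a window of 5 genes, NR1D1, PER2, CRY1, CRY2 and CLOCK, against 4.55% of all windows, and in NR1D1 it began 168 bases before the start. The element AGGTCA was in windows of PER1 and CRY2 (12.1% of all windows) and TTANGTAA in windows of NR1D2 and PER3 (1.98%). These 4 motifs do not contain each other. The DBP window held none of the 4, which says only that these letters are not in this stretch.

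The libraries were of unequal kind, which bears on every value below. The 2 shFABP4 libraries held 2539862 and 20431660 counted fragments and the 2 pLKO libraries 8988961 and 13839885. The library labelled shFABP4 1, the shallowest, had a fragment in 51762 gene names, against 22350 in shFABP4 2 and 23372 and 25560 in the pLKO libraries. From coding genes silent in all 3 others, its background was estimated at 3.44 to 18.4 fragments per kb of exon, rising with GC content, or 54.9% of that library. FABP4, the targeted gene, had 14 and 0 fragments in shFABP4 1 and 2 and 1 and 6 in pLKO. The 14 go against the label, but 4.71 of them are expected from background by GC content, or 11.8 by length alone. With so few fragments in pLKO, knockdown cannot be judged from these counts. The library labelled shFABP4 1 is called by its label throughout. The 11 neural progenitor and medulloblastoma markers summed to 1515 and 6492 CPM (fragments scaled to the library total) in shFABP4 and 1558 and 1575 in pLKO, with VIM at 2830 of 3849 fragments in the library labelled shFABP4 1 and at 131016 of 132634 in shFABP4 2, 7 of them averaged at least 20 fragments, and ATOH1 and OTX2 were at 0 outside the library labelled shFABP4 1. The 6 blood cell markers summed to 182 and 18.6 CPM in shFABP4 and 21.1 and 16.6 in pLKO, the 6 neuron markers to 344 and 20.5 against 10.5 and 12.9, and the 5 adipocyte markers to 87.4 and 1.17 against 0.779 and 1.66, and their part in the results below was not tested.

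NR1D1, the first of the repressors, was close to the floor in pLKO and well above it in shFABP4 2. It had 99 fragments in the library labelled shFABP4 1 and 414 in shFABP4 2, against 5 and 3 in pLKO 1 and 2. The groups did not overlap, and both pLKO values stand on a handful of fragments. With the scaling given next, both shFABP4 libraries lay above both pLKO libraries for 28.5% of all genes tested. In TMM-normalised CPM, which scale each library by the bulk of its tested genes, NR1D1 was at 25.8 and 23.4 in shFABP4 and at 0.758 and 0.297 in pLKO, or 24.6 ± 1.72 and 0.527 ± 0.326 (SD, n = 2 each). The small SD in shFABP4 joins libraries of different content, because 43.0 of the 99 fragments in the library labelled shFABP4 1 are expected from background. With plain library totals, NR1D1 was 57.8-fold higher in shFABP4 2 than in the pooled pLKO libraries (95% interval 29.1 to 135, which covers counting error only). The log2 fold change over all 4 libraries was 5.55 (SE 0.76).

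NR1D2, the paralogue of NR1D1 with the same DNA binding preference, had 7 and 56 fragments in shFABP4 and 4 and 8 in pLKO. Scaled by library totals, shFABP4 2 was 5.21-fold over pooled pLKO (95% interval 2.76 to 10.7). The 7 fragments in the library labelled shFABP4 1 were fewer than the 27.4 expected from background, so that library gives no level for NR1D2. In TMM-normalised CPM it was at 1.82 and 3.16 in shFABP4 and 0.606 and 0.792 in pLKO, with a log2 fold change of 1.83 (SE 0.71). BHLHE40, a basic helix-loop-helix repressor, had 21 and 519 fragments in shFABP4 and 72 and 100 in pLKO. In TMM-normalised CPM its shFABP4 libraries lay on opposite sides of pLKO, at 5.47 and 29.3 against 10.9 and 9.90. BHLHE40 was 3.37-fold higher in shFABP4 2 than in pooled pLKO (2.83 to 4.03), and its 21 fragments in the library labelled shFABP4 1 compare with 37.3 expected from background.

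**Figure D1:**
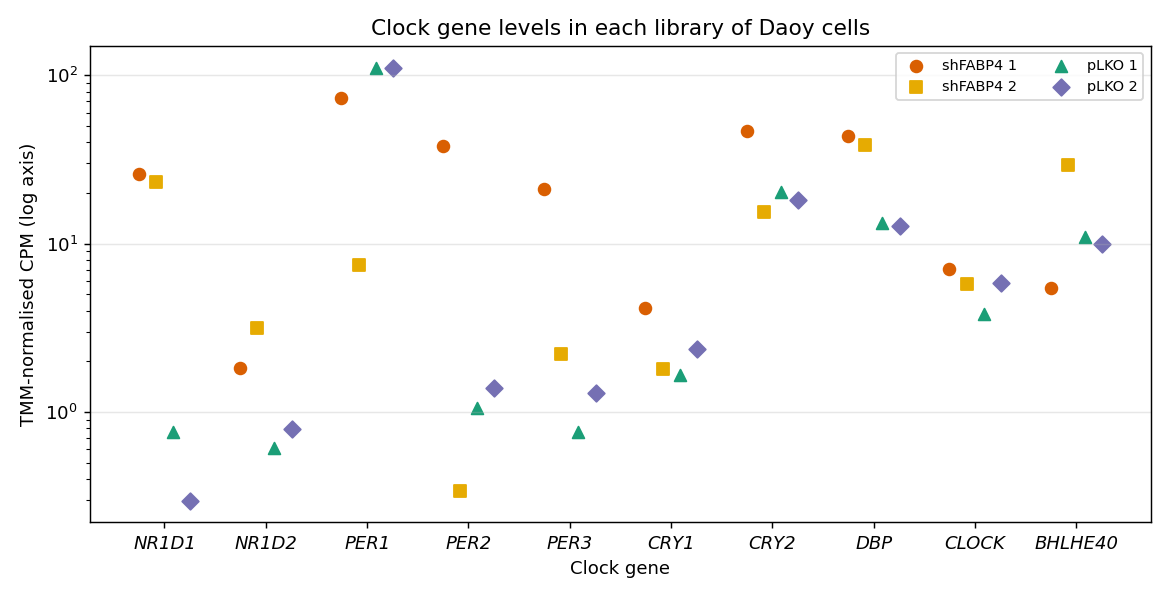
TMM-normalised CPM (log axis) of the 10 clock genes in each library, with 1 point per library and the 2 shFABP4 libraries drawn left of the 2 pLKO libraries. For NR1D1 both shFABP4 points (25.8 and 23.4) lie above both pLKO points (0.758 and 0.297), while for PER1 the shFABP4 2 point (7.45) lies far below pLKO (111 in both); the points of the library labelled shFABP4 1 include background.

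Among the period genes, whose proteins form the inhibitory complex with the cryptochromes, PER1 was the most abundant clock gene in pLKO and had a low value in shFABP4 2. It had 280 and 132 fragments in shFABP4 and 731 and 1121 in pLKO. As plain CPM, PER1 was at 110 and 6.46 in shFABP4 and at 81.3 and 81.0 in pLKO. The pLKO values lie close together, shFABP4 2 lies far below them, and the place of the library labelled shFABP4 1 turns with the scaling. In TMM-normalised CPM it lay below pLKO (73.0 and 7.45 in shFABP4, 111 and 111 in pLKO). Scaled by 1032 abundant coding genes that stand above background (high-signal genes), it lay above (308 and 5.41 against 63.4 and 63.2), also with its expected 129 background fragments subtracted (218 and 5.86 against 69.3 and 69.7). Against pooled pLKO, PER1 was 12.6-fold lower in shFABP4 2 (95% interval 10.5 to 15.1, plain totals). The log2 fold change over all 4 libraries was -1.47 (SE 1.15) with TMM, 1.30 (SE 1.79) with high-signal scaling and 0.67 (SE 1.67) with background also subtracted.

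PER2 and PER3 were low outside the library labelled shFABP4 1. PER2 had 145 and 6 fragments in shFABP4 and 7 and 14 in pLKO, with 72.8 of the 145 expected from background. In shFABP4 2 it was at 0.319 times the pooled pLKO level (95% interval 0.105 to 0.818), so its shFABP4 libraries lay on opposite sides of pLKO. The PER2 log2 fold change of 3.93 (SE 2.12) over all 4 libraries rests on the library labelled shFABP4 1, and without it the value was -1.85. PER3 had 81 and 39 fragments in shFABP4 and 5 and 13 in pLKO, with 58.3 of the 81 expected from background. It was 2.42-fold higher in shFABP4 2 than in pooled pLKO (1.35 to 4.50), and its log2 fold change was 3.46 (SE 1.34), or 1.04 without the library labelled shFABP4 1.

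The cryptochromes, the other arm of the inhibitory complex, had shFABP4 2 values whose intervals span the pLKO level. CRY1 had 16 and 32 fragments in shFABP4 and 11 and 24 in pLKO, and CRY2 had 178 and 273 against 133 and 182. Relative to pooled pLKO, shFABP4 2 was at 1.02 for CRY1 (95% interval 0.612 to 1.70) and 0.968 for CRY2 (0.820 to 1.14). The CRY1 interval is the wider of the pair, since its counts are few, and neither shows that the level was unchanged. In the library labelled shFABP4 1, CRY1 held fewer fragments than the 22.7 expected from background and CRY2 more than the 101 expected. The log2 fold changes over all 4 libraries were 0.52 (SE 0.77) for CRY1 and 0.69 (SE 0.68) for CRY2, where CRY2 was at 46.4 and 15.4 TMM-normalised CPM in shFABP4 and 20.2 and 18.0 in pLKO.

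CLOCK, the DNA binding partner of BMAL1 and the positive arm of the loop, had 27 and 102 fragments in shFABP4 and 25 and 59 in pLKO. Its TMM-normalised CPM overlapped between groups, at 7.03 and 5.76 in shFABP4 and 3.79 and 5.84 in pLKO, and the log2 fold change was 0.40 (SE 0.64). In the library labelled shFABP4 1, 39.7 CLOCK fragments are expected from background, more than the 27 counted. DBP, the output factor that binds D-boxes, had 168 and 680 fragments in shFABP4 and 87 and 128 in pLKO. The DBP groups did not overlap, at 43.8 and 38.4 TMM-normalised CPM in shFABP4 and 13.2 and 12.7 in pLKO, or 41.1 ± 3.81 and 12.9 ± 0.359 (SD, n = 2 each). With this scaling, both shFABP4 libraries lay above both pLKO libraries for 28.5% of all genes tested. DBP was 3.53-fold higher in shFABP4 2 than in pooled pLKO (95% interval 3.03 to 4.14), its log2 fold change was 1.67 (SE 0.44), and 119 of its 168 fragments in the library labelled shFABP4 1 are expected from background.

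**Figure D2:**
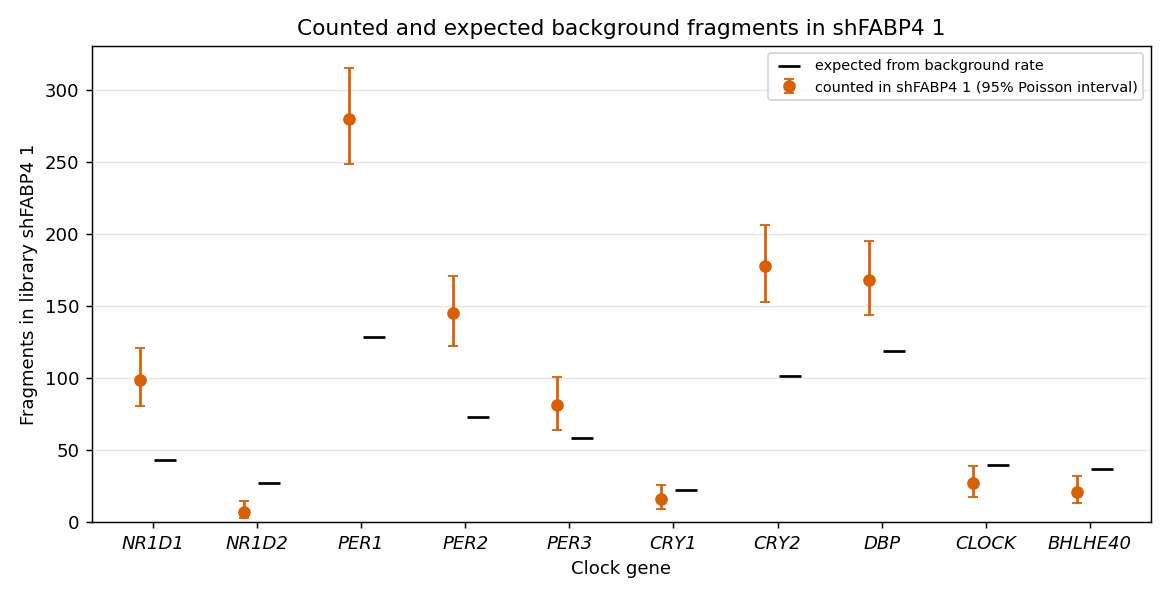
Fragments counted in the library labelled shFABP4 1 for each clock gene (points, with exact 95% Poisson intervals) and fragments expected from its background rate (dashes), on a linear axis. NR1D1 (99 counted, 43.0 expected), PER1 (280, 129) and PER2 (145, 72.8) lie above the expected value, and NR1D2 (7, 27.4) and BHLHE40 (21, 37.3) below it.

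How much of the library labelled shFABP4 1 is RNA of these genes cannot be read from the rate alone, because background varied between genes. Over 1058 coding genes silent elsewhere, each with at least 20 fragments expected, the counted value divided by the expected one ran from 0 at the 5th percentile to 2.76 at the 95th, with a median of 0.780. The same quotient was 2.30 for NR1D1, 2.18 for PER1, 1.99 for PER2, 1.75 for CRY2, 1.41 for DBP and 1.39 for PER3, and it was between 0.255 and 0.706 for the other 4, so all 10 lay inside that range. Of the 10 genes the sum was 1022 counted fragments against 650 expected, or 543 with a rate set by length alone. For every clock gene the count in that library thus lies within the spread of genes that are silent elsewhere, and statements on levels rest mainly on shFABP4 2, a single library.

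All 10 genes passed the low-count filter of edgeR's quasi-likelihood test, NR1D1 and NR1D2 through the shFABP4 libraries alone, since neither pLKO library reached the filter for them. Of 14735 genes tested, 0 passed an adjusted p of 0.05 (0% of genes, and 0 of these 10), with 1818 genes at an unadjusted p under 0.05. DESeq2 called 719 genes (4.88%, with NR1D1 among them), limma-voom 0 (0%), edgeR with the replicate number as a block 28 (0.19%, NR1D1 among them) and edgeR with no low-count filter 69 (0.132%, none of the 10). In TMM-normalised CPM, both shFABP4 libraries lay above both pLKO libraries for 4 of the 10 (NR1D1, NR1D2, PER3 and DBP), against 28.5% of all genes tested, and below for PER1, against 26.1%. Nothing is read from these counts, because the members were chosen with this contrast known. NR1D1, PER3 and DBP were above with each scaling tried: size factors (26.6% of genes above and 28.1% below), upper quartile (32.9% and 22.8%), library totals (48% and 13%), high-signal genes (58.6% and 4.85%) and with background subtracted (42% and 14.3%). PER1 no longer lay below with the last 3, and NR1D2 was under the filter once background was subtracted. TMM leaves the median log2 fold change of all genes at 0.34 and high-signal scaling at 2.32, beside 1.21 for the median of the 10 genes with TMM. When shFABP4 2 was set alone against pLKO in edgeR, NR1D1, NR1D2, DBP and BHLHE40 were called higher and PER1 lower, in a fit that called 66.9% of all genes (34.2% higher and 32.7% lower). The library labelled shFABP4 1 set alone against pLKO gave 6 calls, in a fit that called 85.9%. Both fits take their spread from the pLKO pair and assume that the lone library varies as little.

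**Figure D3:**
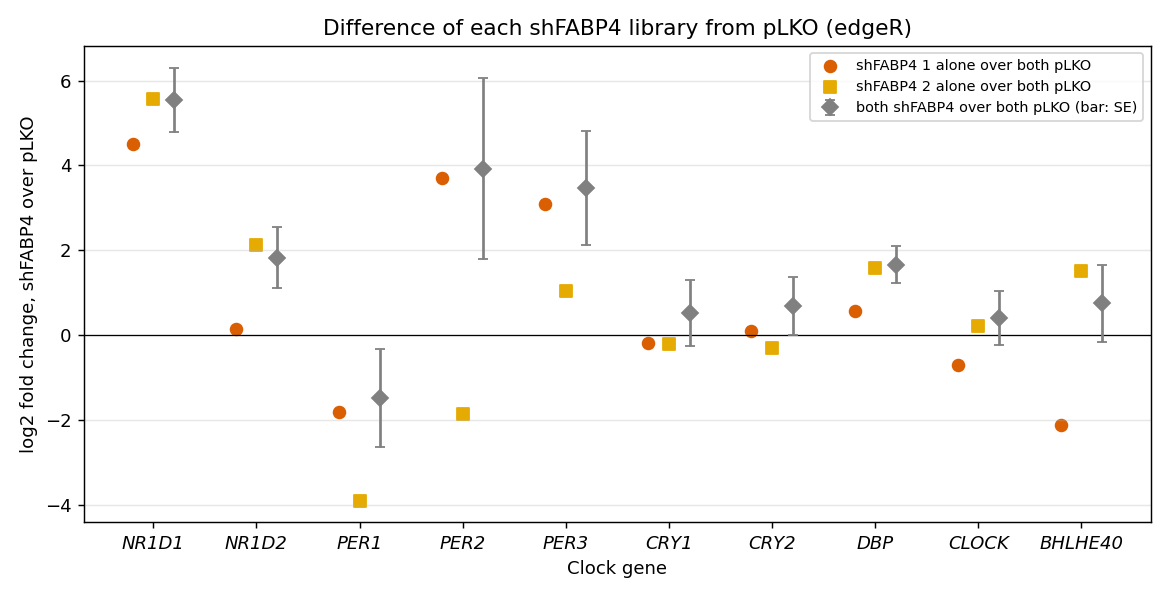
Log2 fold changes of the clock genes, shFABP4 over pLKO, from edgeR with the library labelled shFABP4 1 alone (circles), with shFABP4 2 alone (squares) and with both (diamonds, bars give the SE). The 2 libraries point the same way for NR1D1 (4.50 and 5.57) and opposite ways for PER2 (3.69 and -1.85) and BHLHE40 (-2.11 and 1.50).

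A comparison that does not depend on how libraries are scaled is the make-up of the clock gene fragments within each library. The 10 genes together held 1022 and 2253 fragments in shFABP4 and 1080 and 1652 in pLKO, which is 110 CPM in shFABP4 2 and 120 and 119 CPM in the pLKO libraries. As plain CPM the total lay in a narrow range outside the library labelled shFABP4 1 (402 CPM), but that total does depend on scaling. Its division among genes differed between shFABP4 2 and pLKO. PER1 took 27.4% and 5.86% of these fragments in shFABP4, against 67.7% and 67.9% in pLKO, with a 95% Wilson interval of 4.96% to 6.91% in shFABP4 2. NR1D1 took 9.69% and 18.4% against 0.463% and 0.182%, and DBP 16.4% and 30.2% against 8.06% and 7.75%. BHLHE40 took 2.05% and 23.0% against 6.67% and 6.05%. CRY2 took 17.4% and 12.1% against 12.3% and 11.0%. Both pLKO libraries gave nearly the same division, and shFABP4 2 had DBP, BHLHE40 and NR1D1 where pLKO had PER1. The expected background of the library labelled shFABP4 1 would give PER1 19.8%, DBP 18.3%, CRY2 15.6% and NR1D1 6.62%. The counted shares of PER1 (95% Wilson interval 24.8% to 30.2%) and NR1D1 (8.02% to 11.7%) lie above those values by more than counting error. The intervals of DBP and CRY2 include theirs. These intervals cover counting error only, while background itself ran from 0 to 2.76 times its expected value over silent genes (5th to 95th percentile).

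**Figure D4:**
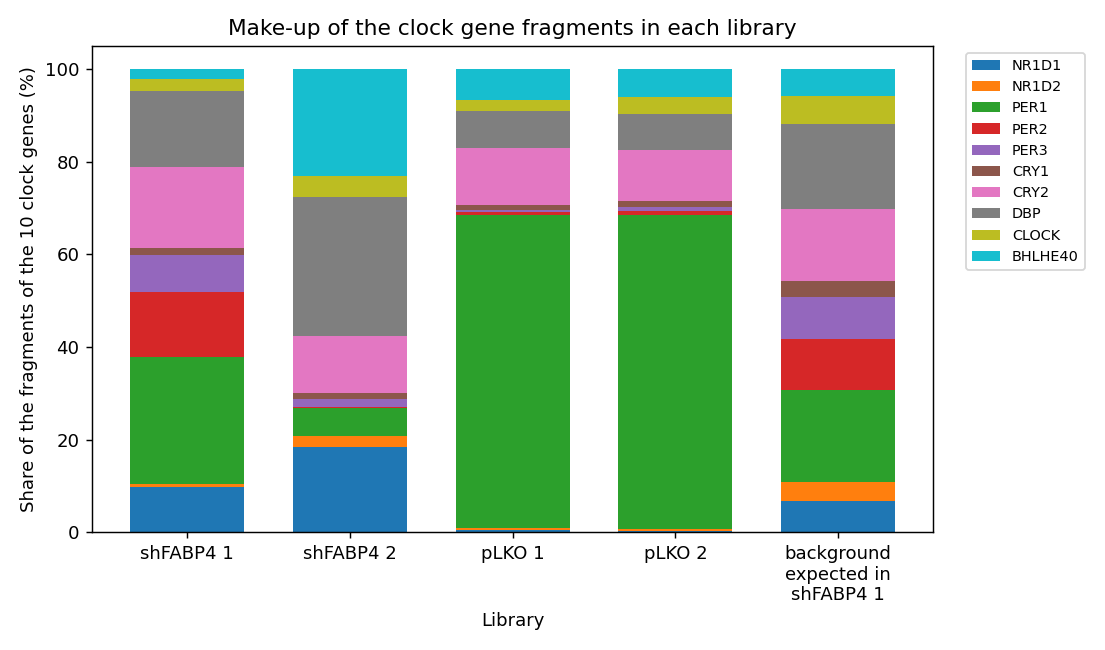
Share of the fragments of the 10 clock genes taken by each gene (stacked bars, %), in the 2 shFABP4 libraries, the 2 pLKO libraries and the background expected in the library labelled shFABP4 1. PER1 fills 67.7% and 67.9% of the pLKO bars and 5.86% of the shFABP4 2 bar, where NR1D1 takes 18.4%; PER1 takes 27.4% of the library labelled shFABP4 1 and 19.8% of its expected background.

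Ratios within a library restate the same counts and are no further support. There were 3.14 NR1D1 fragments for each PER1 fragment in shFABP4 2, against 0.00684 and 0.00268 in pLKO. In the library labelled shFABP4 1 the ratio was 0.354, and its expected background alone gives 0.335. For DBP over PER1 the ratio was 5.15 in shFABP4 2 and 0.119 and 0.114 in pLKO, with 0.600 in the library labelled shFABP4 1 and 0.926 for its background. Both ratios include the low PER1 count of shFABP4 2. Over CRY2 instead, NR1D1 was at 1.52 in shFABP4 2 and 0.0376 and 0.0165 in pLKO. DBP over CRY2 was at 2.49 in shFABP4 2 and 0.654 and 0.703 in pLKO.

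Per length of exon, the order of the clock genes differed between shFABP4 2 and pLKO. In shFABP4 2 the highest were NR1D1 at 7.70 CPM per kb (95% Poisson interval 6.98 to 8.48) and BHLHE40 at 7.22 (6.62 to 7.87), whose intervals overlap, then DBP at 5.13, CRY2 at 2.16 and PER1 at 0.923. NR1D2 (0.473), CLOCK (0.433), CRY1 (0.328) and PER3 (0.235) followed with intervals that overlap between neighbours, and PER2 came last at 0.0427. In pLKO PER1 came first at 11.6 CPM per kb in both libraries, followed by CRY2 (2.39 and 2.12), BHLHE40 (2.28 and 2.06) and DBP (1.49 and 1.43), where the interval of BHLHE40 overlaps both that of CRY2 and that of DBP. The other 6 were under 0.4 CPM per kb in both pLKO libraries, and neighbours among them overlapped. NR1D1 was 7th in pLKO 1 and last in pLKO 2, where it rests on 5 and 3 fragments. In bulk RNA, fewer cells with a transcript and less of it per cell cannot be told apart.

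**Figure D5:**
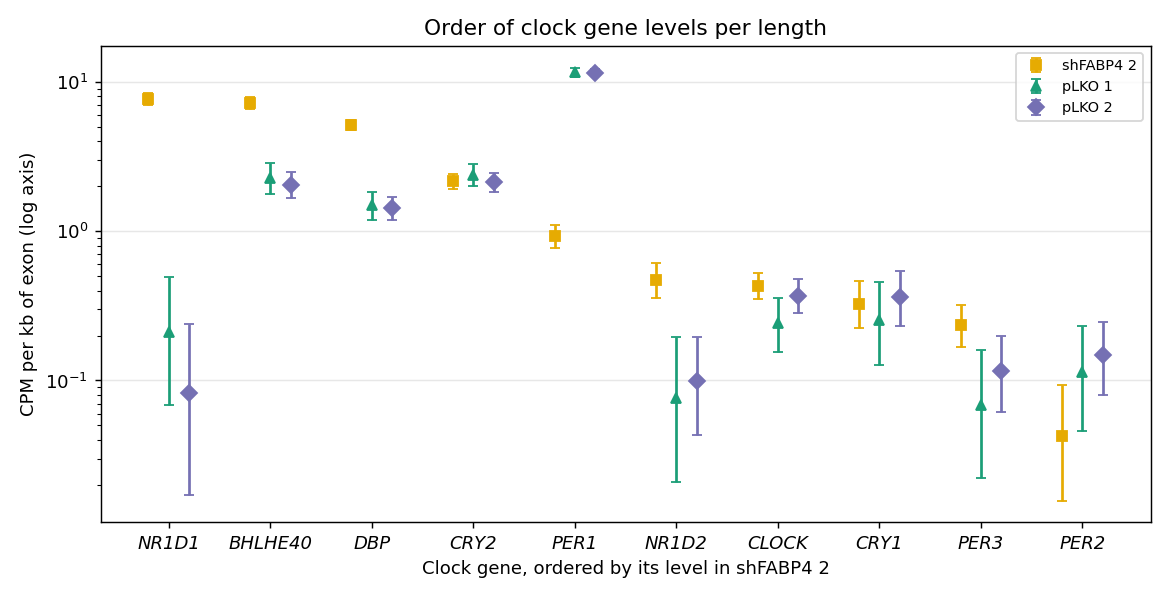
Levels of the clock genes in CPM per kb of exon (log axis) with exact 95% Poisson intervals, in shFABP4 2 (left) and in pLKO 1 and 2, ordered by the level in shFABP4 2. NR1D1 leads in shFABP4 2 at 7.70 and PER1 in pLKO at 11.6, while the CRY2 intervals of the 3 libraries overlap.

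Counting used no strand option, so fragments of a clock gene and of a gene on the other strand cannot be told apart where exons overlap. NR1D1 (chromosome 17, 40092793 to 40100589, minus strand, GRCh38 with GENCODE 38) shares 473 of its 2630 exon bases, 18.0%, with THRA, the thyroid hormone receptor alpha gene on the opposite strand. THRA had 328 and 1965 fragments in shFABP4 and 316 and 496 in pLKO, which edgeR gave as 1.02 on the log2 scale (SE 0.48, adjusted p = 0.396). NR1D1 came to 0.211 fragments per THRA fragment in shFABP4 2 and to 0.0158 and 0.00605 in pLKO, so the pair did not keep a fixed ratio between libraries. In the library labelled shFABP4 1 it was 0.302, against 0.359 for its expected background. DBP shares 661 of its 6485 exon bases with SPHK2 on the opposite strand, which had 168 and 137 fragments in shFABP4 and 74 and 113 in pLKO, so DBP and SPHK2 stood at 4.96 to 1 in shFABP4 2 and at 1.18 and 1.13 to 1 in pLKO. BHLHE40 shares 12.8% of its exon bases with BHLHE40-AS1, PER3 10.7% with UTS2 and CLOCK 0.659% with TMEM165. BHLHE40-AS1 and UTS2 had 0 fragments outside the library labelled shFABP4 1.

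The rest of the pathway was taken from 4 lists, 33 genes in the table and 30 tested, in which 0 passed over all genes tested (4 at an unadjusted p under 0.05). Their median log2 fold change was 0.13, against 0.34 over all genes tested. Both shFABP4 libraries lay above both pLKO libraries for 7 of the 30 and below for 12 with TMM, where 28.5% of all genes lay above and 26.1% below. With high-signal scaling the counts were 17 above and 2 below, beside 58.6% and 4.85% of all genes. With shFABP4 2 alone against pLKO, 9 were called higher and 13 lower, where 34.2% and 32.7% of all genes were.

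In the loop itself, ARNTL, which encodes BMAL1 and is the classic gene silenced by NR1D1, had 50 and 311 fragments in shFABP4 and 32 and 62 in pLKO. ARNTL stood at 13.0 and 17.6 TMM-normalised CPM in shFABP4 and at 4.85 and 6.14 in pLKO, or 1.48 higher on the log2 scale by edgeR (SE 0.54, adjusted p = 0.391, not passing). The library labelled shFABP4 1 held 50 ARNTL fragments with 49.8 expected from background. ARNTL was thus on the same side as NR1D1 in shFABP4 2. NPAS2, a paralogue of CLOCK, had 109 and 239 fragments against 51 and 78, and NFIL3, a repressor at D-boxes, 22 and 377 against 59 and 112. RORA, an activator that competes with NR1D1 for the same element, had 62 and 151 against 58 and 105. TEF, a relative of DBP, had 95 and 99 fragments against 69 and 127, and HLF, another, 64 and 24 against 4 and 4. Scaled by library totals, the ratio of shFABP4 2 to pooled pLKO was 2.07 for NPAS2 (95% interval 1.66 to 2.58) and 2.46 for NFIL3 (2.05 to 2.97). The ratio was 1.04 for RORA (0.824 to 1.30), 0.564 for TEF (0.439 to 0.722) and 3.35 for HLF (1.46 to 8.63). Expected background in the library labelled shFABP4 1 was 133 for NPAS2, 14.7 for NFIL3, 80.7 for RORA, 76.9 for TEF and 48.6 for HLF. Of 8 tested output genes, 2 lay above and 2 below with TMM (28.5% and 26.1% of all genes), and 0 passed. For NPAS2, NFIL3, RORA, TEF and HLF the adjusted p ran from 0.391 to 0.822 (edgeR).

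A further list held 11 kinase subunits, ubiquitin ligase components and other regulators of clock proteins. With TMM, 7 lay below pLKO in both shFABP4 libraries and 1, CIPC, above (26.1% and 28.5% of all genes), and 0 passed. This turned with the scaling: with library totals 2 lay below and 4 above (13% and 48% of all genes), and with high-signal scaling 2 below and 5 above (4.85% and 58.6%). CSNK1E, casein kinase 1 epsilon, which phosphorylates PER proteins, was at 43.2 and 126 TMM-normalised CPM in shFABP4 and 357 and 356 in pLKO (log2 fold change -2.07, SE 0.83, adjusted p = 0.392, edgeR). Its relative CSNK1D was at 85.2 and 161 against 198 and 201 (-0.69, SE 0.65, adjusted p = 0.573, edgeR). Of the 6 genes of the corepressor complex that NR1D1 recruits, 2 lay above and 2 below with TMM (28.5% and 26.1% of all genes) and 3 above and 0 below with high-signal scaling (58.6% and 4.85%), with NCOR1 at 61.5 and 89.1 against 51.5 and 47.2 TMM-normalised CPM and HDAC3, its deacetylase, at 86.8 and 88.3 against 247 and 243.

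The genes whose profile over the 4 libraries was nearest to that of NR1D1, by Euclidean distance of centred log2 CPM among 12556 genes, were SPARC (distance 0.780), BDKRB2 (0.978), PLPP3 (1.01), MATN2 (1.05) and EIF3L (1.12). SPARC, which encodes osteonectin of the extracellular matrix, had 47 and 376 fragments in shFABP4 and 2 and 2 in pLKO. BDKRB2, a bradykinin receptor, had 54 and 139 against 0 and 0. All 5 had from 0 to 7 fragments in each pLKO library and from 139 to 414 in shFABP4 2. In the library labelled shFABP4 1 they had from 47 to 75, beside 30.8 to 72.6 expected there from background. That they share a pattern follows from how they were picked. With 4 libraries this likeness describes counts only.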

How the data were processed

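RNA was prepared with TRIzol, mRNA was captured with beads and fragmented with Tn5, per the labels' protocols. The submitters' processing notes list FastQC, HISAT and StringTie, and GRCh38 as build. The deposited values are raw counts: featureCounts 2.0.0 assigned fragments to exons of GENCODE 38 by gene name, with no strand option, per the file headers. Exon lengths are from the same deposited table. ANK2, whose row is broken over 7 lines, was left out, leaving 59384 gene names. Libraries held 2539862 to 20431660 fragments, and intervals cover counting error only.

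The main test was edgeR 4.0.16 (R 4.3.3): TMM scaling, filterByExpr (count 10, total 15), a robust two-sided quasi-likelihood test, and Benjamini-Hochberg adjustment over all genes tested at 0.05. DESeq2 1.42.0, limma 3.58.1, other scalings and each library left out were alternatives. Background in the library labelled shFABP4 1 was the rate per kb, in 6 bins of GC content, over 2655 coding genes with no fragment elsewhere. Gene types and GC content come from GENCODE 29 (63.0% of names matched). High-signal genes are coding genes whose RNA expected there is at least 5 times the expected background. The members and lists were chosen with earlier results of these data known. All members, other clock genes with a mean of at least 20 fragments, genes overlapping a member and the 5 nearest profiles could be named. The marker genes were named after their counts were seen, and some genes of the lists are not reported here by name. In a simulation, every library of a comparison had the same make-up and spread apart from the altered genes. A lone shFABP4 library thus varied like the pLKO pair by construction. The simulation therefore does not show how the fits behave on these libraries, whose content was unequal. On simulated counts over 14735 genes the test with all 4 libraries called 0 of 200 altered genes at 4-fold and 27 at 16-fold. Without the library labelled shFABP4 1, over 15301 genes, it called 198 of 200 at 4-fold, with 7 false calls.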

Additional observations from a re-analysis of the deposited data

How the results depend on the processing

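The count of 0 genes called over all genes tested ran from 0 to 23895 when a library was left out (10242 without the library labelled shFABP4 1 and 23895 without shFABP4 2), and was 28 with the replicate number as a block, 69 with no low-count filter and 719 with DESeq2. The numbers 1 and 2 are shared by the groups in name only (correlation of same-numbered deviations 0.0106). Under the block NR1D1 passed (adjusted p = 0.0181, edgeR), as it did in DESeq2 (adjusted p = 0.000251), against 0.391 in the fit as reported. Calls among the other clock genes ran from 0 to 29 with a library left out. They were 22 without the library labelled shFABP4 1 and 29 without shFABP4 2, in fits that called 66.9% and 85.9% of all genes. The count of clock genes below pLKO, 1 with TMM, was 0 with library totals, with high-signal scaling and with background subtracted, while 3 to 6 lay above.

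Of 129 values of the 10 log2 fold changes under alternatives, 102 kept direction and side of the threshold and 15 turned direction. NR1D1 passed the threshold under the block and in DESeq2, fits that called 0.19% and 4.88% of all genes. Every other value past it came from a fit with a single shFABP4 library, and those fits called most genes tested. PER1 was at 1.30 with high-signal scaling and 0.67 with background subtracted, and PER2 at -0.30 with limma-voom. CRY1 was at -0.035 with no filter and -0.24 with background subtracted, and CLOCK at -0.015 and -0.10. With a library left out, NR1D1 ran from 4.50 to 5.96, NR1D2 from 0.15 to 2.12, DBP from 0.56 to 1.57, PER3 from 1.04 to 3.17, PER1 from -3.89 to -1.81, BHLHE40 from -2.11 to 1.50, PER2 from -1.85 to 3.69, CRY1 from -0.20 to 0.32, CRY2 from -0.30 to 0.20 and CLOCK from -0.69 to 0.38. Each such fit leaves a group with 1 library, assumed to vary like the other group. The expected background over the 10 genes was 650 fragments by GC content and 543 by length alone. The causes of these changes were not tested. Depth limits NR1D1, NR1D2, PER2 and PER3 in pLKO, at 3 to 14 fragments each.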

Other observations

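Genes known from other work to be repressed by NR1D1 lay on both sides of pLKO. Of 7 tested, which include ARNTL, NPAS2 and NFIL3, edgeR called 0 (3 had an unadjusted p under 0.05), 4 lay above pLKO in both shFABP4 libraries and 1 below with TMM (28.5% and 26.1% of all genes), and the median log2 fold change was 1.43, against 0.34 over all genes. CCL2, a monocyte chemokine, had 25 and 1163 fragments in shFABP4 and 23 and 36 in pLKO (log2 fold change 3.36, SE 1.23, adjusted p = 0.391, edgeR). IL6 had 29 and 761 against 31 and 56 (2.31, SE 0.97, adjusted p = 0.392, edgeR).

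Of 6 tested genes that respond to glucocorticoids, as PER1 does, edgeR called 0 (2 had an unadjusted p under 0.05), 4 lay below pLKO in both shFABP4 libraries and 1 above with TMM (26.1% and 28.5% of all genes), with a median log2 fold change of -1.96, against 0.34 over all genes. With high-signal scaling 2 lay below and 2 above (4.85% and 58.6% of all genes), with a median of -0.13, against 2.32 over all genes. FKBP5, a cochaperone of the glucocorticoid receptor, was at 20.1 and 19.8 TMM-normalised CPM in shFABP4 and 92.8 and 87.4 in pLKO (log2 fold change -2.18, SE 0.45, adjusted p = 0.391, edgeR). TSC22D3, which encodes GILZ, was at 11.5 and 44.2 against 134 and 141 (-2.30, SE 0.82, adjusted p = 0.391, edgeR). In the library labelled shFABP4 1, FKBP5 held 77 fragments with 50.4 expected from background and TSC22D3 44 with 78.0 expected.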
